A study of Mus musculus with 18 samples.

Results

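A set of 10 genes that act in the spindle assembly checkpoint and the chromosomal passenger complex were followed over a dose series of octanoate in mouse hepatocytes: Cdc20, Mad2l1, Bub1b and Bub1 of the checkpoint and its target, Birc5, Cdca8, Incenp and Aurkb of the passenger complex, and the mitotic kinases Aurka and Plk1. Every probe whose annotated gene symbol was one of these names was taken, which gave 19 of the 45281 probes on the array. Of these, 17 probes of 9 genes were bright enough to be tested, among 20536 tested probes in all. All 17 probes were lower at 5 mM octanoate than with vehicle, by between 3.98-fold for Incenp and 11.6-fold for Cdc20 at the brightest probe of each gene. At 1 and 2 mM the log2 changes lay between -0.75 and 0.09. The remaining gene, Bub1, was not detected on any array.

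The cells were AML12, a line of immortalised mouse hepatocytes obtained from ATCC. They were kept for 24 h in complete DMEM with fetal bovine serum and either the vehicle PBS (5 arrays), 1 mM octanoate (4 arrays), 2 mM octanoate (5 arrays) or 5 mM octanoate (4 arrays). Octanoate is the salt of a medium-chain fatty acid, and the series concerns lipids as a carbon source for histone acetylation. All groups are the same line, and the labels do not say whether the replicates of a group were separate cultures, so p-values measure the spread between these arrays, which may be technical.

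Total RNA was hybridised to Illumina mouse BeadChips, which give 1 fluorescence intensity per probe, and between 17446 and 19842 probes per array were above background. The arrays lay on 3 BeadChips. All 5 PBS arrays shared the first with replicate 1 of the 1 mM group. The other 3 arrays at 1 mM were on the second with 2 mM replicates 1 to 3, and the third carried the whole 5 mM group beside the last pair of 2 mM arrays, replicates 4 and 5. Values with the BeadChip as a term in the fit are therefore given beside the main ones, and the 5 mM comparison in that fit runs through the few arrays that link the BeadChips. Of 10 hepatocyte markers, 5 were detected on all arrays (Apob, Ttr, Trf, Hnf4a and Serpina1a), while Alb, Apoa2 and Fgb were detected on none. Of 6 cholangiocyte markers, 3 were also detected on all arrays (Krt7, Krt19 and Sox9). Markers of macrophages, endothelial cells and stellate cells included none that was detected on all 18 arrays.

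The spindle assembly checkpoint holds a dividing cell in metaphase until every chromosome is attached to the spindle. Unattached kinetochores convert Mad2 into a form that, with BubR1 and Bub3, binds Cdc20 and keeps it from activating the anaphase-promoting complex (APC/C), the ubiquitin ligase that marks securin and cyclin B for destruction. The chromosomal passenger complex, with Aurora B as its kinase, releases faulty attachments and later moves to the central spindle for cytokinesis. Transcripts of these genes accumulate in G2 and M phase in cycling cells, and adult liver, where few hepatocytes divide, holds little of them.

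Cell-cycle genes of this class are known to carry promoter elements called the CHR and the CCAAT box, which are bound by the DREAM or MuvB complexes and by NF-Y. Promoters of 8 of the 10 members were matched by symbol in RefSeq (build GRCm38.p6), and Aurkb and Incenp were not among those matched. The 220 bases before and 30 bases after each start were searched on both strands for TTTGAA (a form of the CHR) and CCAAT. They were also searched for the E2F motifs TTTCCCGC or TTTGGCGC or TTTCGCGC or TTTGCCGC. No other form of the CHR was searched for. The 4 promoters below are printed 5′ to 3′ on the gene's strand, with matches in capitals, because they show the range from both motifs to none: Cdc20 (chr4:118437314-118437563, minus strand), Cdca8 (chr4:124936888-124937137, minus strand), Aurka (chr2:172370541-172370790, minus strand) and Birc5 (chr11:117849017-117849266, plus strand).
Cdc20: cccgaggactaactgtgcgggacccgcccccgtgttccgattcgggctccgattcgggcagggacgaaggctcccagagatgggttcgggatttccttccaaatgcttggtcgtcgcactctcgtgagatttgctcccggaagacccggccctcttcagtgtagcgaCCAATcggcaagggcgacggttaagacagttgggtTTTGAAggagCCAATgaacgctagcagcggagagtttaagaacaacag
Cdca8: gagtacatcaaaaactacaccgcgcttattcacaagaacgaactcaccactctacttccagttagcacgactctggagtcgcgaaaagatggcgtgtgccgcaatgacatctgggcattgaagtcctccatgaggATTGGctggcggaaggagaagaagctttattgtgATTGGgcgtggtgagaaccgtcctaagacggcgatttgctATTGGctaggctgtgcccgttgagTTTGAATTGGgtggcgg
Aurka: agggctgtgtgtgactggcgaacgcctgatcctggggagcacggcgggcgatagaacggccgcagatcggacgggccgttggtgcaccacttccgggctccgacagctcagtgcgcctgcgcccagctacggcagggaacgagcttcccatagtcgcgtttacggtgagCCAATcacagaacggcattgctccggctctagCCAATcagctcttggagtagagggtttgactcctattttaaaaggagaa
Birc5: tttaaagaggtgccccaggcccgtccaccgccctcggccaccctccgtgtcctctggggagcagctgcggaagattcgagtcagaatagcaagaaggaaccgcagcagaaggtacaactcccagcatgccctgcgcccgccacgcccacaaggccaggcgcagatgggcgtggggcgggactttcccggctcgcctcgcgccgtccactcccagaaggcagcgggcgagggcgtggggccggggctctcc

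A CHR of the form TTTGAA lay in the window of 2 of the 8 members, Cdc20 (bases -18 to -13 from the start) and Cdca8 (bases 14 to 19). It lay in 15.2% of 32851 RefSeq promoters. The windows of Bub1 and Bub1b hold the similar letters TTCGAA, which were not counted. A CCAAT box lay in 6 of the 8, compared with 33.5% of all promoters, and 4 of the 8 (Cdc20, Cdca8, Aurka and Bub1) held 2 or more, compared with 9.83%. Cdca8 had 4 CCAAT boxes, all in the reverse orientation, the last of which shares 1 base with its CHR. Birc5 and Mad2l1 matched none of the motifs, and no member matched an E2F motif, which 1.99% of all promoters did. These matches describe letters in a window and were not tied to binding.

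Cdc20, which activates the APC/C and is the protein that the checkpoint restrains, had the largest fall at 5 mM among the brightest probes in 28 of 29 versions of the calculation; with BeadChip as a term Cdca8, Birc5 and Bub1b fell further. Its brightest probe, ILMN_2867899, had normalised log2 intensities of 11.11, 11.17, 11.11, 11.06 and 11.04 in the 5 PBS arrays and 10.88, 10.79, 10.90 and 10.44 in the 4 arrays at 1 mM. At 2 mM the values were 10.55, 10.60, 10.71, 10.51 and 10.34, and at 5 mM they were 7.67, 7.50, 7.66 and 7.43. All 5 mM arrays lay far below every other array, and all arrays at 1 and 2 mM lay below every PBS array. Against PBS the change was -3.54 ± 0.10 (SE) on the log2 scale at 5 mM, or 11.6-fold lower (limma, adjusted p = 3.38e-16), and Cdc20 was also lower at 1 mM (-0.34, adjusted p = 0.0179) and at 2 mM (-0.56, adjusted p = 7.39e-05) at this probe. Neither low-dose change was called with BeadChip as a term (-0.22 and -0.31). Of the other Cdc20 probes, ILMN_2612206 changed by -0.07, -0.45 and -3.31 at 1, 2 and 5 mM, ILMN_2698767 by -0.16, -0.60 and -3.20, and ILMN_2867901 by -0.18, -0.47 and -3.40. All 3 were called at 2 and 5 mM and none at 1 mM. The dimmest, ILMN_2698767, was above background on 3 of the 4 arrays at 5 mM. In these bulk samples, fewer dividing cells and less RNA per dividing cell cannot be told apart, here and for every member below.

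Mad2l1 encodes Mad2, whose closed form captures Cdc20 at unattached kinetochores. Its brightest probe, ILMN_2778872, read 11.69, 11.40, 11.53, 11.47 and 11.40 in PBS, 11.22, 11.09, 11.01 and 11.22 at 1 mM and 11.01, 10.91, 11.11, 10.96 and 11.06 at 2 mM. Under 5 mM octanoate it read 9.08, 8.67, 8.75 and 8.88. No array with octanoate reached the lowest PBS array, and the 1 and 2 mM arrays overlapped each other. Mad2l1 changed by -0.37 at 1 mM (adjusted p = 0.00806), by -0.49 at 2 mM (adjusted p = 1.45e-04) and by -2.66 ± 0.09 at 5 mM (6.30-fold lower, adjusted p = 4.26e-15), all in limma's fit. Its other probe, ILMN_2776857, was not called at 1 mM (-0.30, limma adjusted p = 0.0818) and gave -0.42 at 2 mM and -2.50 at 5 mM. The low-dose changes of the brightest probe were -0.28 and -0.37 with BeadChip as a term, neither of them called.

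Bub1b encodes BubR1, the checkpoint protein that binds Cdc20 together with Mad2 and Bub3. Probe ILMN_2774007 had values of 10.01, 10.11, 9.97, 10.03 and 10.08 in PBS, 9.43, 9.70, 9.93 and 9.38 at 1 mM and 9.69, 9.89, 9.68, 9.69 and 9.67 at 2 mM. The 5 mM arrays had 7.12, 6.89, 6.83 and 6.81. The 1 mM arrays were the most scattered of the 4 groups, and their range took in all the 2 mM arrays, while the 5 mM arrays stood alone. Bub1b was lower than in PBS at 1 mM (-0.43, limma adjusted p = 0.0058) and at 2 mM (-0.32, adjusted p = 0.0131). At 5 mM it fell by 3.12 ± 0.10, or 8.72-fold (adjusted p = 1.97e-15), and its second, dimmer probe, ILMN_2985969, changed by -2.43. That probe was not called at 1 mM (-0.22, limma adjusted p = 0.141) and gave -0.27 at 2 mM. With BeadChip as a term the brighter probe was called at 1 mM (-0.61, adjusted p = 0.0324) and not at 2 mM (-0.53, adjusted p = 0.105).

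Bub1, the kinase that recruits BubR1 to kinetochores and marks centromeric histone H2A, could not be measured. Its 2 probes, ILMN_2582233 and ILMN_2632462, had detection p-values of 0.104 or more on all 18 arrays, and their raw signals of 91.05 to 117.8 were close to the median signals of all probes (105.8 to 116.1 by group). No level and no fold are given for it.

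Birc5, Cdca8 and Incenp form the part of the passenger complex that places Aurora B at centromeres. Birc5 (survivin) reads a phosphorylated histone H3 mark there. Its brightest probe, ILMN_2632712, had 10.77, 10.73, 10.70, 10.60 and 10.82 in PBS, 10.75, 10.73, 10.80 and 10.96 at 1 mM and 10.41, 10.51, 10.46, 10.36 and 10.65 at 2 mM. Values at 5 mM were 7.76, 7.25, 7.44 and 7.62, which is the widest spread of any brightest member probe in that group (SD 0.22). The 1 mM arrays lay among and above the PBS arrays, the 2 mM arrays overlapped PBS at their top, and the 5 mM arrays stood clear below. Birc5 was not called at 1 mM (0.09, adjusted p = 0.581), fell by 0.24 at 2 mM (adjusted p = 0.0394) and fell by 3.21 ± 0.10 at 5 mM (9.24-fold, adjusted p = 6.55e-16; limma). The other Birc5 probes, ILMN_2681241 and ILMN_2603699, changed by -3.33 and -3.46 at 5 mM, and the second of them missed the threshold at 2 mM (-0.25, limma adjusted p = 0.0511). No Birc5 probe was called at 1 mM, or at 2 mM with BeadChip as a term (-0.34 at the brightest).

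Cdca8 (borealin) binds survivin and INCENP in a helical bundle. At probe ILMN_2543393 the arrays read 10.52, 10.72, 10.73, 10.68 and 10.63 in PBS, 10.12, 10.32, 10.31 and 10.28 at 1 mM and 10.08, 10.06, 10.00, 9.96 and 10.22 at 2 mM. They read 7.67, 7.35, 7.51 and 7.51 at 5 mM. Each octanoate group lay wholly below PBS, and 1 and 2 mM overlapped each other. Cdca8 changed by -0.40 at 1 mM (limma adjusted p = 0.00213) and by -0.59 at 2 mM (adjusted p = 5.68e-06), the largest fall at that dose among the brightest probes. At 5 mM the change was -3.15 ± 0.08 (8.85-fold lower, limma adjusted p = 1.59e-16). Its other probe, ILMN_2588362, gave -0.41, -0.75 and -3.12 at 1, 2 and 5 mM. With BeadChip as a term the changes of the brighter probe were -0.54 at 1 mM (adjusted p = 0.0225) and -0.80 at 2 mM (adjusted p = 0.00492).

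Incenp is the scaffold that joins this module to Aurora B and helps to activate the kinase. Its single probe, ILMN_1216213, gave 9.44, 9.41, 9.45, 9.59 and 9.61 in PBS, 9.33, 9.12, 9.34 and 8.96 at 1 mM and 9.22, 9.33, 9.18, 9.10 and 9.44 at 2 mM. At 5 mM it gave 7.56, 7.37, 7.46 and 7.65. The 1 mM arrays lay below PBS without overlap, 1 of the 5 arrays at 2 mM reached into the PBS range, and 5 mM was separate. Incenp was lower at 1 mM (-0.31, limma adjusted p = 0.0275) and at 2 mM (-0.25, adjusted p = 0.0359), and its change at 5 mM, -1.99 ± 0.09, was the smallest of the 9 genes (3.98-fold, adjusted p = 6.01e-13). Its low-dose changes shrank with BeadChip as a term, to -0.17 (adjusted p = 0.574) and -0.06 (adjusted p = 0.877).

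Aurkb, the kinase of the complex, was measured by 1 probe, ILMN_1239230, at 9.55, 9.41, 9.59, 9.62 and 9.38 in PBS, 9.38, 9.44, 9.50 and 9.08 at 1 mM and 9.23, 9.18, 9.22, 9.24 and 9.30 at 2 mM. The values at 5 mM were 6.60, 6.79, 6.47 and 6.65. PBS and 1 mM overlapped, the 2 mM arrays were tightly grouped just below PBS, and 5 mM was far lower. The change was -0.16 at 1 mM, which was not called (limma adjusted p = 0.245), -0.27 at 2 mM (adjusted p = 0.0165) and -2.88 ± 0.09 at 5 mM (7.37-fold lower, adjusted p = 1.28e-15). The 2 mM change was -0.25 with BeadChip as a term and was not called.

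Aurka, the related kinase that matures centrosomes and builds the spindle, had values of 9.86, 9.82, 10.04, 10.03 and 9.94 at its probe ILMN_2617228 in PBS, 9.51, 9.57, 9.90 and 9.81 at 1 mM and 9.70, 9.81, 9.79, 9.83 and 9.62 at 2 mM. Under 5 mM the arrays gave 7.26, 7.01, 6.94 and 7.06. The lower doses overlapped PBS, and only the 5 mM arrays were apart. In the main fit Aurka was the one gene called at neither low dose (-0.24, adjusted p = 0.0772 at 1 mM and -0.19, adjusted p = 0.0986 at 2 mM, limma). It fell by 2.87 ± 0.09 at 5 mM (7.32-fold, limma adjusted p = 1.99e-15). Its low-dose changes grew with BeadChip as a term, to -0.43 (adjusted p = 0.0911) and -0.42 (adjusted p = 0.158). Neither was called, and in that fit no gene but Cdca8 and Bub1b was called at a low dose.

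Plk1, the kinase that Aurora A activates for mitotic entry and that acts at centrosomes, kinetochores and the midbody, was read by probe ILMN_1255053 at 11.57, 11.50, 11.61, 11.49 and 11.37 in PBS, 11.31, 11.29, 11.14 and 11.26 at 1 mM and 10.84, 11.17, 10.92, 11.13 and 11.02 at 2 mM. The 5 mM arrays read 8.60, 8.42, 8.33 and 8.65. Every array with octanoate was below every PBS array. Plk1 changed by -0.26 at 1 mM (limma adjusted p = 0.0489), by -0.49 at 2 mM (adjusted p = 1.11e-04) and by -3.01 ± 0.09 at 5 mM (8.04-fold lower, adjusted p = 5.13e-16). Its low-dose changes were -0.20 and -0.45 with BeadChip as a term, neither of them called.

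**Figure D1:**
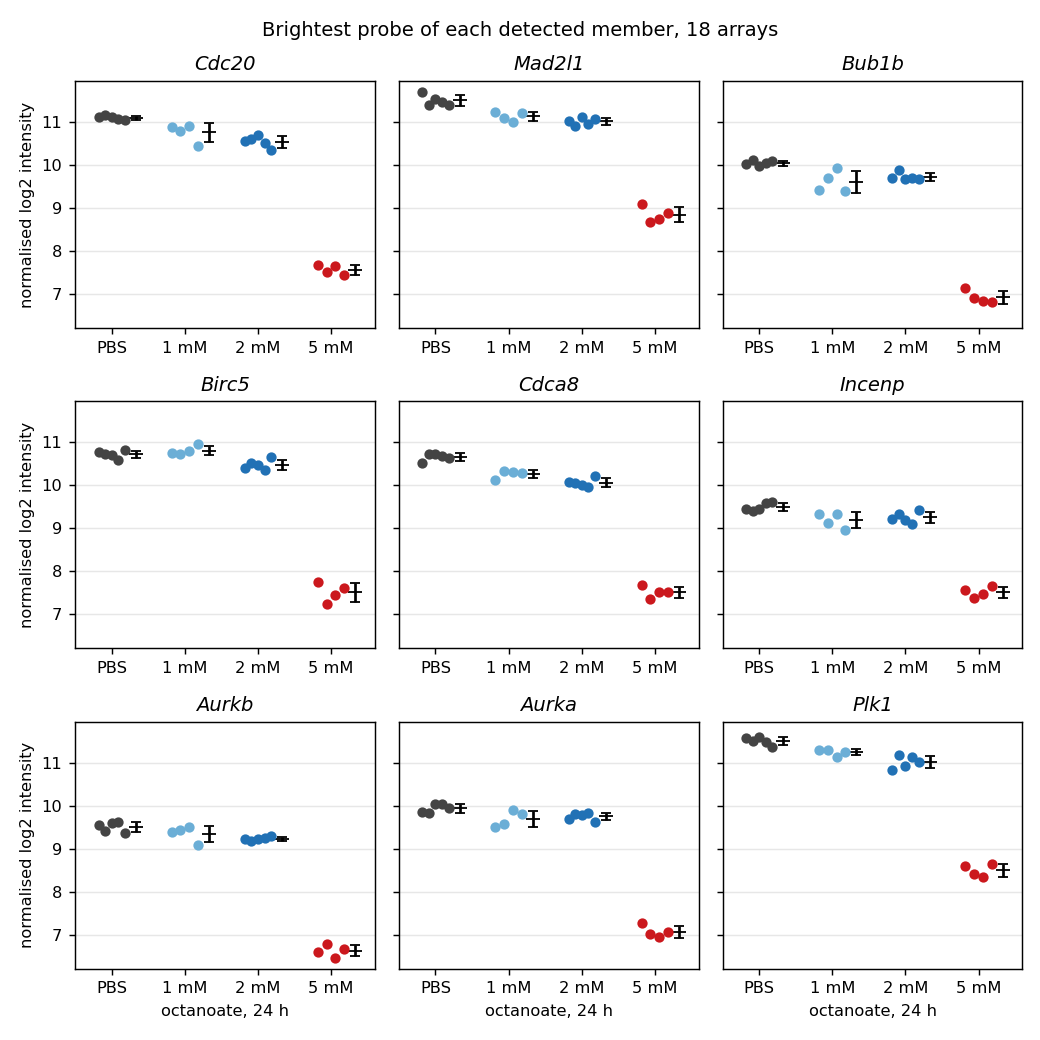
Normalised log2 intensity (y axis) of the brightest probe of each of the 9 detected members on the 18 arrays, by octanoate dose (x axis); points are arrays and the bars beside them give the mean ± SD. In each panel all 4 arrays at 5 mM lie below every other array, while PBS, 1 mM and 2 mM are close together; levels of different genes come from different probes and cannot be compared.

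Over the 17 probes, 7 were called lower than PBS at 1 mM, where 8.26% of all tested probes were called lower. At 2 mM 15 were called lower (18.9% of all tested probes), and at 5 mM all 17 were (26.3% of all tested probes). None was called higher at any dose. The count at 1 mM rested on single arrays: it was 3 without 1 mM replicate 4, and 4 without 1 mM replicate 2 or without PBS replicate 4. Groups did not overlap, with every octanoate array below every PBS array, for 8 of the 17 probes at 1 mM (7.54% of all tested probes), 12 at 2 mM (12.6%) and 17 at 5 mM (22% of all tested probes). The median change of the 17 probes was -0.24 at 1 mM, -0.42 at 2 mM and -3.12 at 5 mM on the log2 scale, beside medians of -0.01, -0.02 and -0.02 over all tested probes. Within groups, the arrays' mean deviation over the 9 genes lay between -0.09 and 0.14, and 5 mM replicate 1 was the highest of its group for 6 of the 9 genes. Among the 20536 probes, the members ranked between 3 and 197 from the largest fall at 5 mM.

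With the BeadChip as a term, 2 of the 17 probes were called lower at 1 mM (1 of Cdca8 and 1 of Bub1b), where 2.59% of all tested probes were in that fit. At 2 mM 2 were called (both of Cdca8), beside 4.33% of all tested probes, and at 5 mM 17 were, beside 11.4%. The 5 mM changes in that fit lay between -3.72 and -1.82, with a median of -3.08. For the brightest probes they were -3.17 for Cdc20, -3.33 for Birc5, -3.38 for Cdca8, -3.30 for Bub1b, -3.03 for Plk1, -3.08 for Aurka, -2.90 for Aurkb, -2.54 for Mad2l1 and -1.82 for Incenp. The median change stayed at -0.20 at 1 mM and -0.42 at 2 mM, while the median SE rose from 0.093 to 0.152 at 1 mM and from 0.088 to 0.190 at 2 mM.

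**Figure D2:**
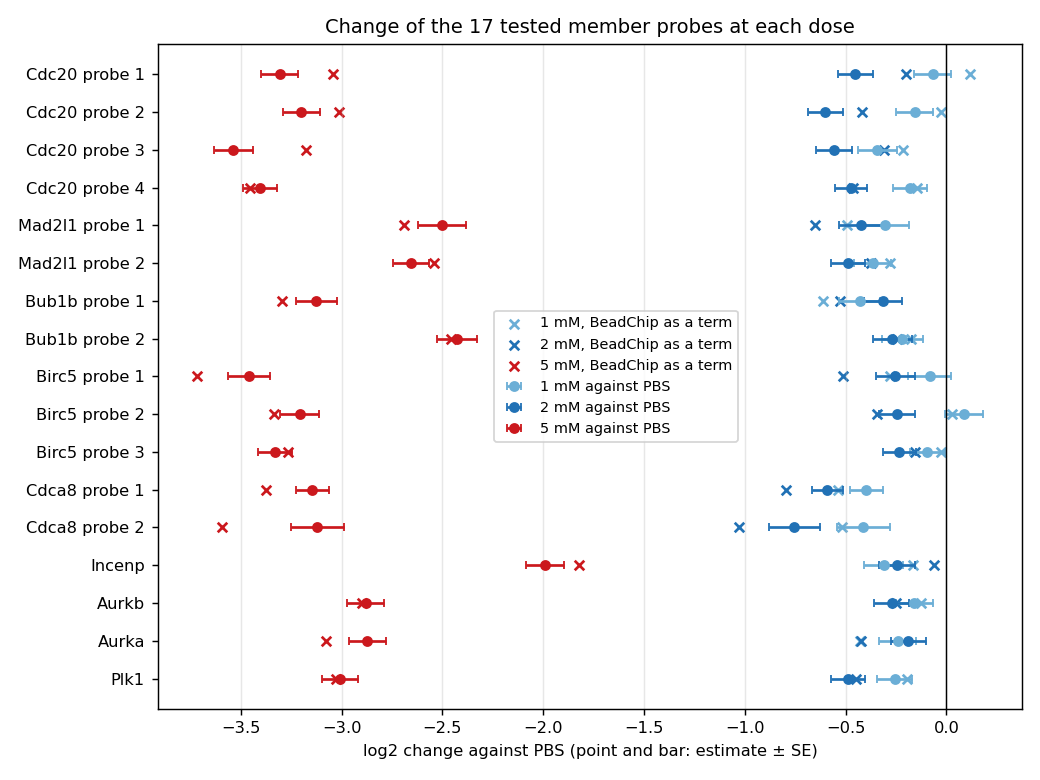
Log2 change against PBS (x axis) of the 17 tested member probes (y axis) at 1, 2 and 5 mM octanoate; probes of a gene are numbered by ID, points are limma estimates with bars of 1 SE, and crosses are estimates with BeadChip as a term. The 5 mM changes form a separate cloud between -3.54 and -1.99, and the 1 and 2 mM changes lie between -0.75 and 0.09.

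The step from 2 to 5 mM held most of the change. All 17 probes were called lower at 5 mM than at 2 mM, where 13.2% of all tested probes were, with a median of -2.61. On the third BeadChip alone, which held both doses, the 4 arrays at 5 mM were lower than the 2 arrays at 2 mM by differences from -2.99 (Birc5) to -1.76 (Incenp) at the brightest probes. The step from 1 to 2 mM was small, with a median of -0.17. It was called for 3 probes, all of Cdc20 (-0.29 to -0.44), while 1.68% of all tested probes were called lower, and for 1 probe without 1 mM replicate 1 or without 2 mM replicate 4. With BeadChip as a term no member probe was called between 1 and 2 mM (0.424% of all tested probes were called lower), nor was one with median scaling. The 3 Cdc20 probes kept changes of -0.31 (ILMN_2612206), -0.39 (ILMN_2698767) and -0.32 (ILMN_2867901) with BeadChip as a term. On the second BeadChip alone, the brightest Cdc20 probe, which was not called in the main fit either, differed by -0.095 between both doses. Bub1b, Aurka and Incenp were 0.11, 0.05 and 0.07 higher at 2 mM than at 1 mM at their brightest probes, none of which was called.

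Of the 5 mM change, the part already present at 2 mM ranged from 6.58% (Aurka) to 24.2% (a Cdca8 probe). At the brightest probes it was 7.60% for Birc5, 9.44% for Aurkb, 10.1% for Bub1b, 12.4% for Incenp, 15.8% for Cdc20, 16.2% for Plk1, 18.4% for Mad2l1 and 18.8% for Cdca8. These shares depended on the BeadChip: with it as a term, Aurka's was 13.7%, Bub1b's 16.1%, Cdc20's 9.83% and Incenp's 3.5%. They also depended on the processing. For the brightest Cdc20 probe the authors' values gave -0.54 at 2 mM and -2.76 at 5 mM, beside -0.56 and -3.54 in the main fit. Cdca8 had the largest share at its brightest probe either way (23.6% with the term).

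A straight line through the doses fell for all 17 probes (24.4% of all tested probes), by a median of 0.63 per mM on the log2 scale. The change per mM was steeper above 2 mM than below it. Between PBS and 2 mM it lay between -0.38 and -0.09 per mM, and between 2 and 5 mM between -1.07 and -0.58 per mM. The difference between both slopes was called for all 17 probes, in a direction in which 7.29% of all tested probes were called, with a median of -0.71 per mM. Aurka had one of the sharpest bends, from -0.09 to -0.89 per mM (difference -0.80, limma adjusted p = 7.02e-08), and Incenp one of the mildest, from -0.12 to -0.58 per mM (difference -0.46, adjusted p = 8.49e-05). The bend was called with BeadChip as a term for 15 of the 17 probes (2.67% of all tested probes). The order of the genes changed in that fit. Among the brightest probes Birc5 then had the sharpest bend (-0.825) and Cdca8 the mildest (-0.462), with Aurka at -0.67 and Incenp at -0.55. Over all alternatives, the bends of dim probes shrank to as little as -0.05 (ILMN_2588362 of Cdca8) and -0.095 (ILMN_2698767 of Cdc20).

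**Figure D3:**
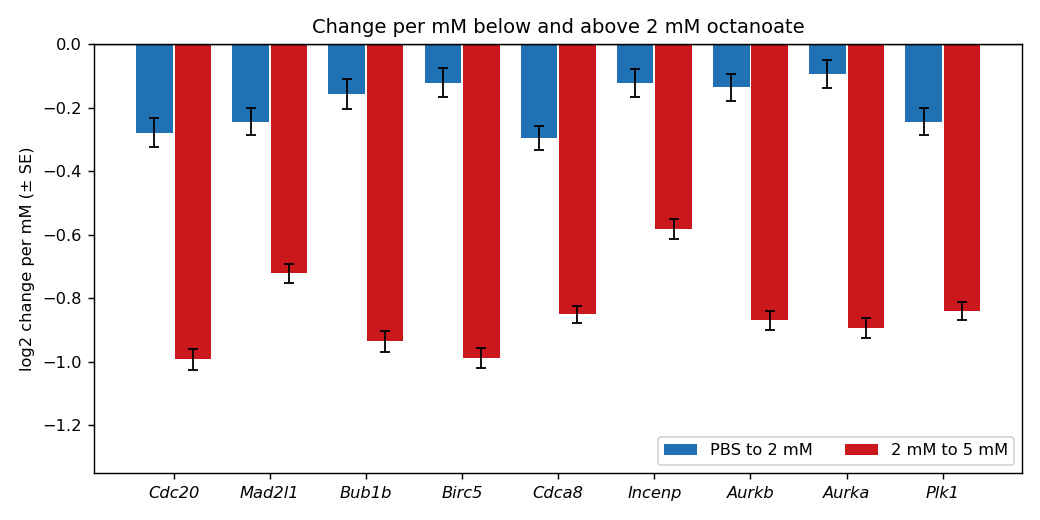
Change per mM of octanoate on the log2 scale (y axis) between PBS and 2 mM and between 2 and 5 mM, with bars of 1 SE, for the brightest probe of each of the 9 genes (x axis). Every gene has a steeper fall above 2 mM, from -0.58 per mM for Incenp to -0.99 per mM for Cdc20.

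Members that work in one complex were compared for the size of their fall. For 5 pairs, the difference between both genes' log2 values at their brightest probes was taken on each array. It was compared between PBS and 5 mM with an exact two-sided permutation test, whose smallest possible p with 5 and 4 arrays is 0.0159. PBS and 5 mM arrays shared no BeadChip, so this test cannot tell the dose from the BeadChip. Relative to Birc5, Incenp stood at -1.22 ± 0.13 (SD, n = 5) in PBS and -0.01 ± 0.14 (SD, n = 4) at 5 mM, so that it fell 2.32-fold less (exact permutation, adjusted p = 0.0199 over the 5 pairs). Incenp also fell 2.23-fold less than Cdca8 and 1.85-fold less than Aurkb (exact permutation, adjusted p = 0.0199 for each). The groups did not overlap in any of the 3 differences. The difference from Aurkb, 0.89 on the log2 scale, was 0.50 without background correction and 0.38 on the authors' processed values, and passed the threshold in both. At the brightest probes, Incenp thus lost less of its signal than the other measured subunits of the passenger complex. Among the brightest probes of the 9 genes it had the smallest fall in all 29 versions of the calculation. Dimmer probes of Cdca8 (-1.31), Cdc20 (-1.14) and Bub1b (-0.99) fell less than Incenp (-1.33) on the authors' processed values. Incenp has a single probe, so a difference between genes cannot be told from one between probes.

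For Mad2l1 against Bub1b the fall was 1.38-fold smaller (difference 0.47, exact permutation, adjusted p = 0.0199), but this difference turned to -0.05 without background correction and to -0.29 on the authors' processed values. The result for Aurka against Aurkb depended on the background step. Their log2 values differed by 0.43 ± 0.09 (SD, n = 5) in PBS and 0.44 ± 0.18 (SD, n = 4) at 5 mM, a change of 0.01 (exact permutation, p = 0.905). The groups overlapped. Without background correction Aurka fell further (-0.15 relative to Aurkb, exact permutation, adjusted p = 0.0396), and on the authors' values it did so too (-0.19, exact permutation, adjusted p = 0.0159).

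How far the signals fell depended on the background correction. The lowest detected probes at 5 mM had normalised levels of 4.70 to 4.79. Of the 17 member probes, 7 averaged within 2 log2 units of that level, and the dimmest, ILMN_2698767 of Cdc20, averaged 5.04, while Mad2l1 averaged 8.84. On the authors' processed values the median change of the 17 probes was -1.998, with a range from -2.76 (Cdc20) to -0.99 (the dim Bub1b probe), and without background correction it was -2.27. All 17 probes were called lower at 5 mM in both. By either route Cdc20 had the largest and Incenp the smallest change among the brightest probes.

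Other genes of the same pathways were examined in 10 lists, each gene taken at its brightest tested probe. Over all 10605 tested genes, 26.7% were called lower and 31.9% higher at 5 mM, with a median change of 0.01. With BeadChip as a term 12% were called lower and 16.1% higher. The lists were drawn up by function, with earlier results of these data known.

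Among partners in checkpoint signalling, 11 of the 12 genes were tested and all 11 fell at 5 mM, with a median of -1.28 and 6 called with BeadChip as a term. The largest falls were those of Spdl1 (Spindly, -2.85), which links dynein to kinetochores, Kntc1 (Rod, -2.19) of the RZZ complex, the nucleoporin Nup107 (-1.96) and Trip13 (-1.85), the ATPase that remodels Mad2. Trip13 was above background on 2 of 4 arrays at 5 mM. Ttk, the Mps1 kinase that starts the checkpoint, was detected in PBS and on no array at 5 mM at its brightest probe. It was thus at least 2.21-fold lower there, while another of its probes gave -0.68. With Ttk at that bound the list's median was -1.14. Mad1l1 and Bub3, which bind Mad2 and BubR1, changed by -0.39 and -0.48, the smallest falls of the list, and were not called with BeadChip as a term. Another Bub3 probe gave -0.16. Ttk, Mad1l1 and Bub3 were picked out after their values were seen.

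Among outer kinetochore genes 11 of the 13 were tested, 9 fell and 2 were not called, with a median of -1.50 and 8 called with BeadChip as a term. Named by size, they were Ndc80 (-2.80), which binds microtubules together with Nuf2 (-1.73), Ska3 (-2.63) of the SKA complex and Pmf1 (-2.13) of the MIS12 complex. Ska3 and Nuf2 were above background on 2 of 4 arrays at 5 mM. Probes of Spc24 disagreed, with 0.11 at the brightest, which was not called, and -2.41 at another.

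For the 14 APC/C subunits, 11 were tested, of which 7 fell, 1 rose and 3 were not called, with a median of -0.32. Anapc15 (-1.71), which helps to release Cdc20 from the checkpoint complex, Cdc23 (-1.22), Anapc4 (-0.44) and Anapc7 (-0.41) fell, while Anapc16 was the one subunit that rose (0.26). Other probes of Anapc15, Cdc23 and Anapc7 gave -0.68, -0.24 and -0.22. The ligase's other activator and its E2 enzymes included 3 tested genes of 5, and all 3 fell: Ube2c (-1.75), above background on 1 of 4 arrays at 5 mM, Ube2s (-1.23) and Fzr1 (Cdh1, -0.45). With BeadChip as a term 5 APC/C subunits were called lower, of which Cdc16 had not been called in the main comparison, while Anapc16 and Fzr1 were not called.

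Of 14 separase, securin and cohesion genes, all tested, 11 fell and 3 were not called, with a median of -0.82 and 6 called with BeadChip as a term. The shugoshins Sgo1 (-2.60) and Sgo2a (-2.55), which protect centromeric cohesin, Espl1 (separase, -2.59) and Esco2 (-2.49), an acetyltransferase of cohesin, fell the most. A second Sgo1 probe gave -0.75, and Espl1 was above background on 3 of 4 arrays at 5 mM. Passenger complex recruitment and central spindle genes numbered 8, of which 6 were tested and 5 fell, with a median of -2.29, and all 5 were called with BeadChip as a term. They included Anln (anillin, -2.97), Prc1 (-2.44), which bundles the midzone, Kif23 (-2.35), the motor of centralspindlin, and Ect2 (-2.23), the exchange factor that directs the cleavage furrow. Another Kif23 probe gave -0.03, another Anln probe gave -1.91, and Ect2 was above background on 3 of 4 arrays at 5 mM.

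Aurora A and Plk1 cofactors had 8 of 10 genes tested, with 5 lower, 1 higher and 2 not called, and a median of -0.61. Tpx2 (-2.77), the activator of Aurora A on the spindle, Plk4 (-2.71), Bora (-1.47), which presents Plk1 to Aurora A, and Nedd1 (-0.75) fell, whereas Plk2, a stress-induced relative of Plk1, rose by 0.41. The BeadChip fit called 3 of them lower, without Nedd1, and Plk2 higher. Of mitotic entry and exit kinases and phosphatases, 9 of 13 were tested, 6 fell and 3 were not called, with a median of -0.85. Cdk1 (-2.29), Cdc25c (-2.03) and Pkmyt1 (-1.97) fell, with other probes of Cdk1 and Pkmyt1 at -0.29 and 0.42, and Pkmyt1 was above background on 2 of 4 arrays at 5 mM. Ccna2 (cyclin A2) was above background in PBS and on no array at 5 mM, which made it at least 1.92-fold lower. In the BeadChip fit 4 of the 6 were called lower, and Ccna2 was not (-0.76, adjusted p = 0.225).

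Genes of the DREAM and MMB complexes and FOXM1, the regulators of this class of promoter, had 11 of 15 tested, of which 9 fell and 2 were not called, with a median of -0.59. Mybl2 (B-Myb, -2.69), above background on 2 of 4 arrays at 5 mM, Foxm1 (-2.47), Lin54 (-1.97), the subunit that binds the CHR, and Rbl1 (-1.21) fell. A further probe gave -0.47 for Mybl2 and -1.15 for Lin54. The BeadChip fit called 4 of the 9 genes that fell, Rbl1 not among them. Cyclin-dependent kinase inhibitors were the one list with a median above 0 (0.48): of 7 genes 4 rose, 1 fell and 2 were not called. Cdkn1c (1.05, above background on 3 of 5 PBS arrays), Cdkn1a (0.92), which encodes the p53 target p21, Cdkn2a (0.60) and Cdkn2b (0.48) rose. At the brightest probes Cdkn1b alone was called lower (-0.28), and another Cdkn1b probe gave 0.10. Probes of Cdkn2c disagreed, from -1.65 to 1.03, with 0.15 at the brightest, which was not called. In the BeadChip fit 3 of the 4 genes that rose were called higher, and Cdkn2a and Cdkn1b were not called.

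**Figure D4:**
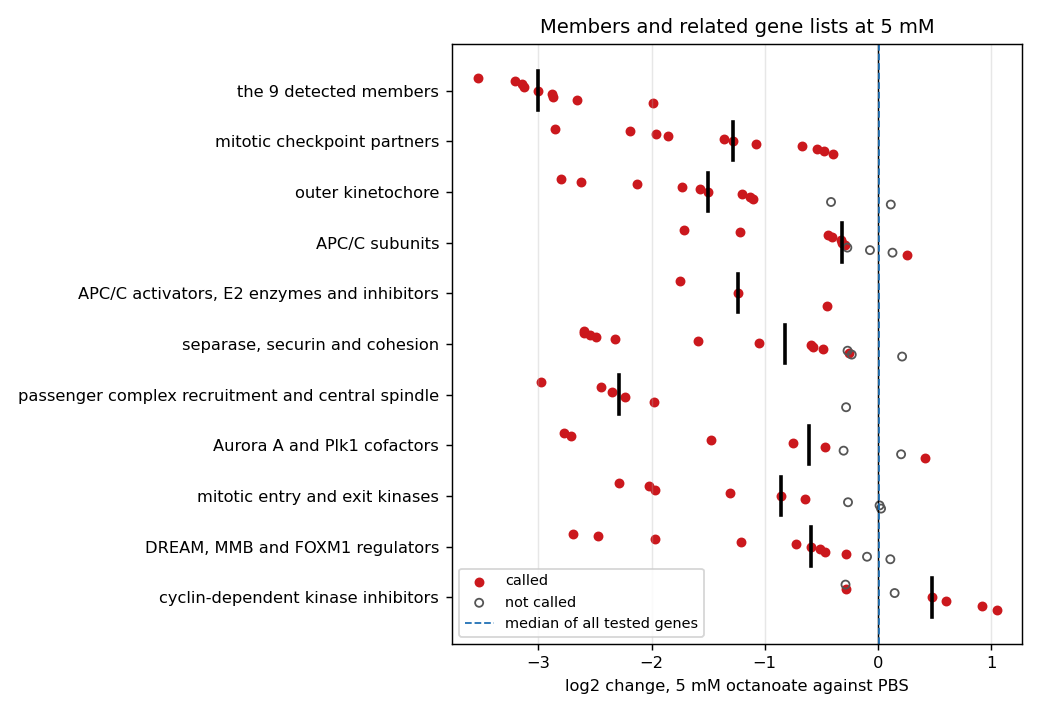
Log2 change at 5 mM octanoate against PBS (x axis) of each tested gene at its brightest probe, for the 9 detected members and 10 related lists (y axis); filled points were called, open points were not, black bars are list medians and the dashed line is the median of all tested genes. The members lie at the low end with a median of -3.01, and the cyclin-dependent kinase inhibitors are the one list with a median above 0.

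The genes whose pattern over the 18 arrays was most like the mean of the 9 members were sought among 10596 other genes. They were Cdca2 (Pearson r = 0.9975), Sapcd2 (0.9971), Kif22 (0.9969), Pbk (0.9961) and Kif23 (0.9956), with changes of -2.90, -3.05, -3.01, -2.97 and -2.35 at 5 mM. Cdca2 recruits a phosphatase to anaphase chromosomes, Kif22 is a chromosome-bound kinesin and Pbk is a mitotic kinase. The arrays share 4 doses and 3 BeadChips, so these values mainly describe the gap between 5 mM and the rest.

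Hepatocyte markers moved in the opposite direction at 5 mM. All 6 tested markers of the 10 rose and none fell. Normalised intensities of all 10 markers, undetected ones included, were summed on the linear scale. The sum went from between 7682 and 8221 in PBS to between 24920 and 26920 at 5 mM. Most of its rise came from Trf (log2 mean 12.15 in PBS and 13.65 at 5 mM) and Ttr (8.32 and 12.54). Of 4 tested cholangiocyte markers, 2 fell and 1 rose, with sums of 5020 to 5309 in PBS and 5418 to 6199 at 5 mM. Macrophage markers, with Adgre1, Clec4f and Ptprc detected on no array, summed to 108.1 to 119 in PBS and 108.8 to 116.3 at 5 mM, endothelial markers to 146.6 to 158 and 134 to 144.7, and stellate or fibroblast markers to 137.3 to 158.1 and 154.9 to 186.8. The sums of these types also take in undetected markers and consist largely of background signal. Of the tested markers of these types, Des (0.68) and Dcn (0.58), 2 of 3 stellate or fibroblast genes, were higher at 5 mM, Kdr (-0.40), 1 of 2 endothelial genes, was lower, and the 1 tested macrophage gene was not called. The number of detected probes was also higher at 5 mM (19279 ± 551, SD, n = 4) than in PBS (17918 ± 391, SD, n = 5). The part of either in the members' fall was not tested.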

How the data were processed

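AML12 RNA from 18 samples was measured on Illumina BeadChips. The deposited table holds probe intensities that are not normalised, each with a detection p-value, per the file headers. A second deposited table holds the authors' processed log2 values; the submitters' processing notes name lumi without a version, and its settings are not given in the sources used here. No sample column was left unmapped (0). The intensities were background-corrected and quantile-normalised with limma 3.58.1 (neqc, offset 16) in R 4.3.3, with negative controls inferred from the detection p-values. Probes with a detection p under 0.05 on at least 4 arrays were tested (lmFit and eBayes over all 18 arrays, Benjamini-Hochberg over 20536 probes), and "called" means an adjusted p under 0.05. The median SE of a probe's 5 mM change was 0.11. Symbols came from the platform annotation, updated through RefSeq, with 34885 probes having 1 symbol, 18 several and 10378 none. The fit was tested on simulated data first. Within groups, arrays correlated at 0.988 to 0.995, and no pair of arrays was identical.

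Every member probe is named. In each list the 4 called genes with the largest change at 5 mM are named, with up to 2 called in the opposite direction and any gene alone in its direction, and the 5 genes with the most similar pattern. Alternatives covered background correction, scaling, the filter, the BeadChip, the replicate number, single arrays and the authors' values. The members and lists were chosen with earlier results of these data known.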

Additional observations from a re-analysis of the deposited data

Results flagged for a closer look

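For 3 of the 68 groups of values examined (17 probes in 4 groups), 1 array stood apart from the rest of its group by Dixon's test, where chance gives 3.4 at a rate of 1 in 20. For Birc5 probe ILMN_2603699, PBS replicate 2 was low at 9.78 beside 10.00 to 10.05 in the other PBS arrays. For the same Birc5 probe, 1 mM replicate 1 was low at 9.70 beside 9.94 to 9.98 in the other arrays at 1 mM. For Bub1b probe ILMN_2774007, 2 mM replicate 2 was high at 9.89 beside 9.67 to 9.69 in the other arrays at 2 mM. None of these arrays was at 5 mM.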

How the results depend on the processing

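All 17 probes were called lower at 5 mM against PBS and at 5 mM against 2 mM in each of 28 alternatives, including each fit without a single array, and by the slope in each of those run for it. The counts at the low doses moved both ways. At 1 mM, 10 probes were called without background correction, with median scaling and on the authors' values. With BeadChip as a fixed term 2 probes were called, with the replicate block 4, and without single arrays 3 to 7. Leaving out 1 mM replicates 1 and 4 and 2 mM replicate 5 together gave 2. These 3 arrays are a different set from those flagged above by Dixon's test, and only 1 mM replicate 1 is in both. At 2 mM, 17 were called without background correction and on the authors' values, 2 with BeadChip as a fixed term and 11 to 16 without single arrays. At 2 mM against 1 mM, 6 were called without background correction, 5 on the authors' values and 1 with only the groups compared. In that comparison 0 were called with median scaling, with BeadChip as a fixed term or without those 3 arrays together. Without single arrays it was 1 to 4. Median scaling moved the median of all probes at 1 mM to -0.11, with the members' median at -0.41. Same-numbered arrays correlated weakly: 0 of 25 pairs had a correlation above 0.1, with values from -0.04 to 0.05. Of these pairs 12 correlated best with their own number, and the number that chance would give was not worked out. The replicate block gave 15 probes at 2 mM and 17 at 5 mM. Without background correction, the difference turned to -0.05 for Mad2l1 against Bub1b and to -0.15 for Aurka against Aurkb; on the authors' values they were -0.29 and -0.19. The other 56 of 60 pair values kept their direction and call. Dim probes limit the sizes: the authors' values made the 5 mM change over 1.5 times smaller for 9 of the 17 probes, and omitting background correction did so for 4. The change of slope was not called for 1 Cdca8 probe in 4 alternatives and for 1 Mad2l1 probe with BeadChip as a term.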
